A study of Mus musculus with 34 samples.

Results

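In LPS-activated mouse B cells, 8391 of 27903 distinct Hi-C contacts (30.1%) joined a promoter to a distal anchor that overlapped no peak of promoter chromatin. A contact was counted here when exactly 1 of its anchors overlapped a peak of H3K4me3, the histone mark of active promoters, and the centres of its anchors lay less than 3 Mb apart. The anchor with the peak is called the promoter anchor and the other the distal anchor. A contacted gene is a gene of the RNA table with an end of its locus within 1 kb of an H3K4me3 peak in the promoter anchor. Of the other contacts, 15606 had H3K4me3 at both anchors and 946 at neither, and 2960 spanned 3 Mb or more.

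The series compared activated B cells with resting B cells, both from the CD43- fraction of spleens of C56BL/6J mice (so spelled in the labels) aged 6 to 8 weeks. Activated cells had spent 3 days in culture with 10 µg/ml of lipopolysaccharide (LPS), a bacterial product sensed by a Toll-like receptor of B cells. The resting samples were so grouped by their titles and source names, because their growth and treatment fields carry the same LPS text as the activated ones. No genotype other than the strain was given, and the selection against CD43 was the only enrichment named. Hi-C, FAIRE-seq, STARR-seq and the H3K4me3 and H3K27ac peak lists came from activated cells, whereas RNA was measured in 2 activated and 2 resting samples. The contact list pools the Hi-C libraries and each peak list stands alone, so contacts and peaks had no replicates. The labels do not state that the RNA replicates were separate animals or cultures, so the p-values reflect no more than the variation among these 4 samples, and that variation may be technical.

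Enhancers are stretches of DNA that raise the transcription of a gene from a distance, and chromatin loops can bring an enhancer close to the promoter it acts on. Active enhancers usually carry acetylated histones (H3K27ac) and open chromatin, which FAIRE-seq recovers as nucleosome-poor DNA. STARR-seq clones DNA fragments into reporter plasmids and reads out those that drive their own transcription. In B cells, activation moves the cells from a quiescent, recirculating state to division, class switching and antibody secretion.

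The promoters of 4 contacted genes were read from a RefSeq table (GRCm38.p6), from 250 bases before to 50 bases after the start site. Prdm1, Atp5d and Map3k1 had the most distal anchors, with Tut1, tied with Atp5d and Map3k1, left out by alphabetical order. Cdk1 was added as a gene with the most anchors (8) among the members of the gene lists described further on. Capitals mark matches on either strand to the GC box (GGGCGG) or the CCAAT box (CCAAT). The TATA box (TATAAA), the ETS motif (CCGGAAG), the E box (CACGTG) and a CTCF core (CCA, any 2 bases, AG, any 2 bases, GGC) were searched as well and had no match in these windows. Prdm1 lies at chr10:44458699-44458998 (minus strand), Map3k1 at chr13:111808944-111809243 (minus), Cdk1 at chr10:69352863-69353162 (minus) and Atp5d at chr10:80142025-80142324 (plus, the first of 2 entries). Exo1, also with 8 anchors, was the other such list member.
Prdm1: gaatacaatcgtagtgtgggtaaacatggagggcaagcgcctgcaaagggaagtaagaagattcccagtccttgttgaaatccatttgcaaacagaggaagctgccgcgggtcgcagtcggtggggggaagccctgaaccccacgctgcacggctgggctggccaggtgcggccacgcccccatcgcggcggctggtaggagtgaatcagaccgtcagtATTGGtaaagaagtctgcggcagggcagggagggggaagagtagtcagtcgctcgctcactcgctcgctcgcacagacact
Map3k1: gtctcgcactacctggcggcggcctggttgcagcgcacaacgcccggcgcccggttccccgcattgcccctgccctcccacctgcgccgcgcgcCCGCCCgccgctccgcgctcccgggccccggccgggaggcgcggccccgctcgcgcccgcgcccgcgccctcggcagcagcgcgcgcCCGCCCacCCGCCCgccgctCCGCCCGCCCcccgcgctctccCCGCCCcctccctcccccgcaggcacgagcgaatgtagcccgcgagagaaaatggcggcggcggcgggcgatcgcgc
Cdk1: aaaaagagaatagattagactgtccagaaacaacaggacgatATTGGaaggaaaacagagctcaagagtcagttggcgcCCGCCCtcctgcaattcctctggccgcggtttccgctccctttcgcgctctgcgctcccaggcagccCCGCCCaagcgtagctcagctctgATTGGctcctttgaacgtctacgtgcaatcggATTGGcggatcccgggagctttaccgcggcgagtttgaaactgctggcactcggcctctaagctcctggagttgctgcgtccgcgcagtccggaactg
Atp5d: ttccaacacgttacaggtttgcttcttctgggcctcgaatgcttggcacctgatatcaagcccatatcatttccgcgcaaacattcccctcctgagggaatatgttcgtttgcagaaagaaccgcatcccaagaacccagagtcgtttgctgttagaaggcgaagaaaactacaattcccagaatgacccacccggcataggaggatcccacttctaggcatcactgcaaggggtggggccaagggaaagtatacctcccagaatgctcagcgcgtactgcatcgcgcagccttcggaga

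The Prdm1 window held 1 CCAAT match, in the reverse orientation. The Map3k1 window held 6 GC box matches and 82.7% G and C. The Cdk1 window held 3 CCAAT and 2 GC box matches, and the Atp5d window held none. A promoter entry was found for 3615 contacted genes. Of these, 67.4% held a GC box, against 66.2% of 5286 genes with H3K4me3 at an end and no distal contact and 35.6% of all 27025 genes of the table. The CCAAT box was in 40.7%, 36.6% and 37.8% of the same groups, and the ETS motif in 22.3%, 16.3% and 9.08%. The CTCF core was in 3.04%, 2.89% and 2.38%, the TATA box in 6.20%, 6.73% and 14.1%, and the E box in 11.2%, 9.80% and 7.09%. These matches describe the letters of the windows and are not binding sites.

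The contacts ranged from neighbouring chromatin to megabases. The median distance between anchor centres was 231 kb, with quartiles of 72.1 and 938 kb. Contacts under 20 kb made up 12.4% and contacts of 1 Mb or more 23.8%. The 15606 contacts between promoters had a median of 335 kb. The longest promoter to distal contact spanned 2998280 bp, and the shortest contact with 1 marked anchor that the distance limit left out spanned 3001904 bp. At the other edge of the rule, the smallest overlap that put a contact among the promoter pairs was 1 bp, and the closest distal anchor lay 0 bp from a peak.

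**Figure D1:**
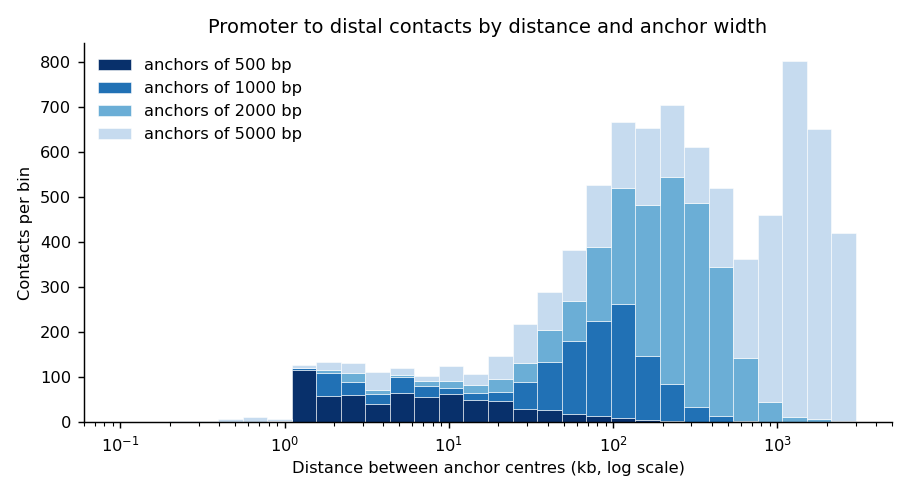
Number of promoter to distal contacts per bin of distance between anchor centres (kb, log scale), stacked by the anchor width of the deposited list. Contacts with 500 bp anchors had a median of 5.68 kb and those with 5000 bp anchors a median of 991 kb.

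Distance followed the width of the anchors that the authors used. Contacts with 500, 1000, 2000 and 5000 bp anchors numbered 645, 1285, 2518 and 3943, with median distances of 5.68, 79.5, 226 and 991 kb. The deposited interaction read count per contact ran from 5 to 382, with a median of 7, and 25.9% of the contacts stood at the lowest count in the list. The contacts overlap one another. Joining contacts whose anchors both overlapped left 7194, made of 3911 distal regions and 4352 promoter regions. Of the distal regions, 57.1% had 1 promoter partner and the highest number was 19. Of the promoter regions, 60.8% had 1 distal partner and the highest number was 11. In 120 contacts the anchors themselves overlapped. Contacts share anchors, so the intervals below (exact Clopper-Pearson, 95%) cover counting error only.

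The distal anchors carried open chromatin and reporter activity more often than H3K27ac. FAIRE peaks were in 74.0% of distal anchors, against 93.2% of the promoter anchors of the same contacts. H3K27ac was in 41.6% (interval 40.6 to 42.7%) of distal anchors, against 95.9% of promoter anchors. STARR peaks lying in FAIRE peaks, the authors' set of open DNA with enhancer activity, were in 69.0% of distal and 69.1% of promoter anchors. Super-enhancers, long domains of H3K27ac, were in 0.596% of distal and 1.01% of promoter anchors. Anchors of contacts between promoters carried H3K27ac in 95.6%. The share of distal anchors with H3K27ac was 36.6, 39.0, 40.2 and 44.2% for anchors of 500, 1000, 2000 and 5000 bp. By distance it was 40.5% under 20 kb, 41.6% from 20 to 100 kb, 40.1% from 100 to 500 kb, 39.2% from 500 kb to 1 Mb and 45.6% from 1 to 3 Mb. Within anchors of 2000 bp the share was lower at larger distance, at 55.9, 44.2, 39.4 and 34.4% in the first 4 of these classes and 9 of 29 anchors from 1 to 3 Mb.

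**Figure D2:**
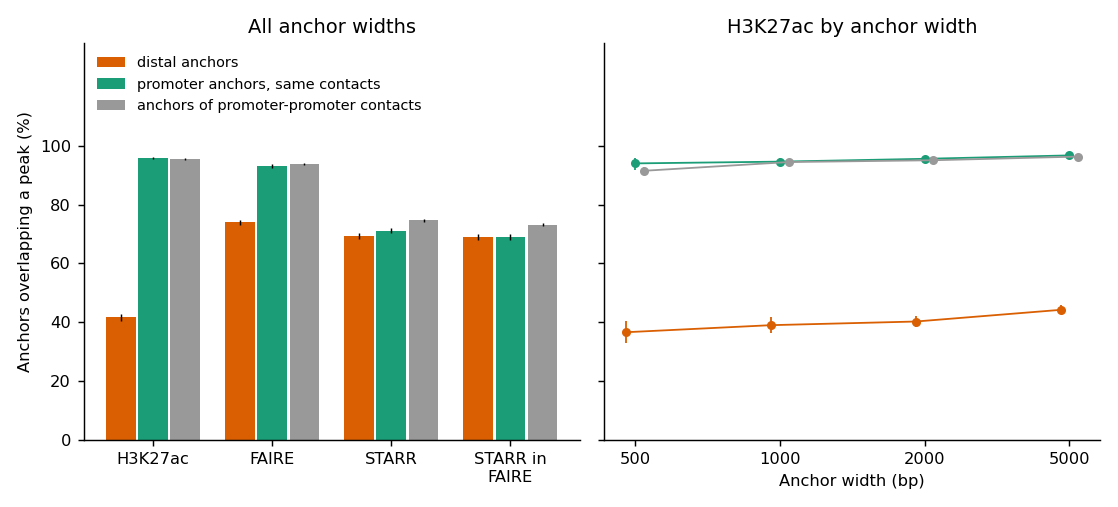
Left, share of anchors overlapping a peak by at least 1 bp (%), for distal anchors, the promoter anchors of the same contacts and anchors of promoter-promoter contacts. Right, the H3K27ac share by anchor width (bp). Error bars are exact 95% intervals. Distal anchors held H3K27ac in 41.6% and promoter anchors in 95.9%.

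Nearly every contact of the deposited list had reporter activity at an anchor, and whether the list was filtered on it is not given in the sources used here. A list selected on reporter activity would have the STARR and FAIRE shares given above partly set by that selection. Of all 27903 contacts, 27890 had a STARR peak in FAIRE at 1 anchor or both. Among the promoter to distal contacts, 3200 (38.1%) had it at both anchors, 2587 (30.8%) at the distal anchor alone, 2598 at the promoter anchor alone and 6 at neither. These classes differed in what the distal anchor held. H3K27ac was at 53.7% and 52.7% of distal anchors in the first 2 classes, against 15.8% where the promoter anchor alone had the STARR peak. In that last class 37.1% of distal anchors held the end of a gene with at least 1 FPKM in activated cells, against 6.28% and 5.60% in the first 2. FPKM scales sequenced fragments to transcript length and library size. No mark of the 3 (H3K27ac, FAIRE or STARR) was found at 1779 distal anchors.

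Reporter-active DNA in distal anchors was acetylated more often than reporter-active DNA in no anchor of the list, and the intervals for distal anchors and other anchors overlapped. Of 4713 STARR peaks in FAIRE that lay outside H3K4me3, 2608 were in a distal anchor of these contacts, and 46.7% of those overlapped H3K27ac (interval 44.8 to 48.6%). Of the 1472 that were in no anchor of the list, 24.3% did (22.1 to 26.5%). The 633 in other anchors stood at 49.0% (45.0 to 52.9%). Among peaks over 1 kb from H3K4me3 the shares were 45.9%, 22.8% and 39.1%. An H3K4me3 peak lay within 1 kb beyond the edge of 2151 distal anchors (25.6%), and without these contacts 43.3% of the distal anchors had H3K27ac.

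Most distal anchors lay outside the gene they contacted. By the loci of the RNA table, 58.2% were between genes, 36.8% in the body of another gene and 5.0% in the body of a contacted gene. Under 20 kb the share in the body of a contacted gene was 20.6%. From 1 to 3 Mb, 49.3% of distal anchors were in the body of another gene. Distal anchors were at the higher coordinate in 50.1% of the contacts.

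The gene nearest to the distal anchor was the contacted one in a minority of contacts. A contacted gene could be assigned in 7805 contacts (93.0%). In 1009 of them (12.9%, interval 12.2 to 13.7%) the nearest gene end belonged to a contacted gene. The share was 64.2% under 20 kb, 19.9% from 20 to 100 kb, 3.89% from 100 to 500 kb and 0.270% from 500 kb to 1 Mb. From 1 to 3 Mb it was 0 of 1869, and the upper bound of the interval was 0.197%. The median number of genes nearer than the contacted one was 0, 3, 8, 15.5 and 40 in these distance classes. Over all contacts the median was 8 and the highest 204, and 20 or more genes were nearer in 28.6%.

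**Figure D3:**
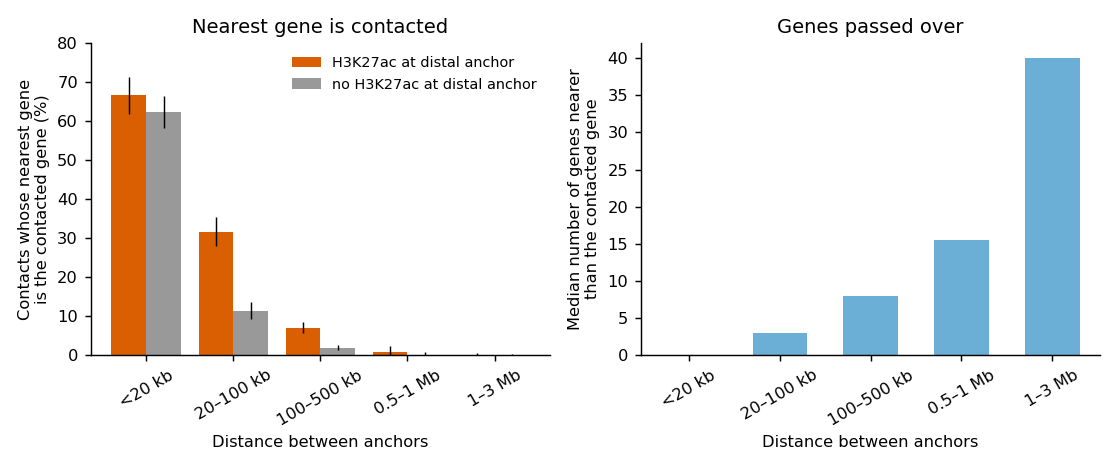
Left, share of contacts in which the gene nearest to the distal anchor was a contacted gene (%), by distance and by H3K27ac at the distal anchor, with exact 95% intervals. Right, median number of genes nearer than the contacted gene. From 20 to 100 kb the share was 31.6% with H3K27ac and 11.2% without.

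Acetylated distal anchors contacted their nearest gene more often within the distance classes from 20 to 500 kb. From 20 to 100 kb the share was 31.6% with H3K27ac (interval 28.0 to 35.4%) and 11.2% without (9.17 to 13.6%). From 100 to 500 kb it was 6.94% and 1.76%. Under 20 kb the intervals overlapped, at 66.8% and 62.5%. Within contacts that had a STARR peak in FAIRE at the distal anchor, the shares from 20 to 100 kb were 34.8% and 18.0%. Within contacts that had it at the promoter anchor alone, they were 3 of 65 and 9 of 361. Over all distances, 8.73% of distal anchors with H3K27ac held a gene end, against 25.2% of those without. A gene with its end in the distal anchor is likely to be the nearest. The part of such anchors in the difference was not tested.

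Where the nearest gene was passed over, it was usually an expressed gene. In these 6796 contacts the contacted gene had a median of 18.6 FPKM in activated cells and the nearest gene 10.2 FPKM. The contacted gene had the higher level in 65.8% of them. Where a promoter anchor had several contacted genes, the highest value was taken, which raises the contacted side. Over all contacts with a gene, 1893 had 2 or more. Contacted genes also had H3K4me3 by definition, so the 2 sides were not chosen alike. The nearest gene reached 1 FPKM in 78.4%, and 67.9% of the nearest genes had H3K4me3 at an end themselves. Passing over was scored for each contact alone, so another contact of the same distal region may join the nearest gene. For example, chr10:79402030-79404029 passed over Arid3a in a contact of Atp5d. The overlapping anchor chr10:79403065-79403564 contacted Arid3a.

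Several of the acetylated contacts that passed over a gene had high counts. From 100 kb upward, the highest count was 157 reads, between chr15:72897946-72902945 and the promoter of Eif2c2 (Argonaute 2, the small RNA effector), over 117 kb. That distal anchor lay only 12 bp from an H3K4me3 peak, and the distal anchors named next lay at least 2932 bp from one. Ccnd2, which encodes cyclin D2, was joined to chr6:127220049-127225048 by 114 reads over 123 kb. Itga4, the alpha 4 integrin chain of lymphocyte adhesion, was joined to chr2:78797416-78802415 by 110 reads over 297 kb. Prdx3, a mitochondrial peroxidase, was joined to chr19:61159137-61164136 by 101 reads over 213 kb, from within another gene. Trim35 was joined to chr14:66800120-66805119 by 115 reads over 113 kb.

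The highest counts of all came from contacts of almost adjacent anchors. The contact of Xbp1, the transcription factor of the secretory programme, had 382 reads, the most in the set, but its 5000 bp anchors lay 0.557 kb apart and overlapped each other. The same held for Rnf157 with 359 reads, and for Slbp and Tmem129, which share a promoter anchor, with 348. H2-Aa, the alpha chain of MHC class II, had 316 reads at 2.39 kb, and H2-Oa had 295 at 3.72 kb. Their 5000 bp anchors overlapped each other as well. The 5 longest contacts, of Wdfy4, Fkbp2 with Ppp1r14b, Osbpl8, Mrpl46 with Mrps11, and Ppp1r12a, had 5 or 6 reads each over 2993 to 2998 kb.

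A few distal regions met many promoters. The region chr10:127979923-127991839 contacted 25 genes, among them Cdk4, the kinase partner of D cyclins, Timeless, a replication fork protein, and Dgka, a diacylglycerol kinase. It had a STARR peak in FAIRE and no H3K27ac. Of its genes, 10 were higher and 7 lower in activated cells, 6 were not called and 2 were not tested, where 28.2% of all tested genes were higher and 26.2% lower (limma adjusted p under 0.05). The region chr17:34367105-34375287, with both marks, contacted 18 genes of the MHC, of which 4 were higher, 4 lower and 10 not called, where 54.4% of all tested genes were called in either direction. Its partners included H2-DMa, H2-DMb1 and H2-DMb2, which load peptide on MHC class II, H2-Oa, a chain of their inhibitor, and Tap1, Tap2, Psmb8 and Psmb9, which supply peptide to MHC class I. H2-DMa had 59.4 and 36.0 FPKM in activated samples, against 148 and 147 FPKM in resting samples. Tap1 had 111 and 89.3 FPKM in activated samples, against 74.7 and 82.0 FPKM in resting samples. H2-DMa fell by 1.65 ± 0.265 on the log2 scale (SE), with a limma adjusted p of 0.00251, and for Tap1 the difference was 0.34 ± 0.204 with an adjusted p of 0.196. The other 3 regions, 2 on chromosome 17 and 1 on chromosome 10, contacted 15 to 17 genes each.

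Contacted genes were 4777 in number, 39.5% of the 12108 genes with H3K4me3 at an end. They had a median of 2 distal anchors, 2296 of them (48.1%) had 1, and 349 had 5 or more. At least 1 distal anchor with H3K27ac was found for 2609 genes (54.6%). Their median level was 13.7 FPKM in activated cells and 12.5 FPKM in resting cells. Genes with H3K4me3 whose contacts were all with other promoters or of 3 Mb or more had medians of 10.7 and 9.62 FPKM, and genes with H3K4me3 and no contact had 0.536 and 0.708 FPKM.

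The level was higher in genes with more distal anchors, in both states. For genes with 1, 2, 3 to 4 and 5 or more anchors the medians were 12.7, 13.3, 15.8 and 19.8 FPKM in activated cells and 11.2, 12.6, 14.5 and 18.0 FPKM in resting cells. In each of the 4 samples taken alone the order was the same. Counted by separate distal regions rather than anchors, the order did not hold throughout, with 12.7, 13.9, 18.5 and 16.7 FPKM in activated cells, whereas in resting cells the medians were 11.4, 12.9, 15.7 and 16.8 FPKM. Genes with an acetylated distal anchor had a median of 15.3 FPKM in activated cells, against 11.9 FPKM for contacted genes without one.

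**Figure D4:**
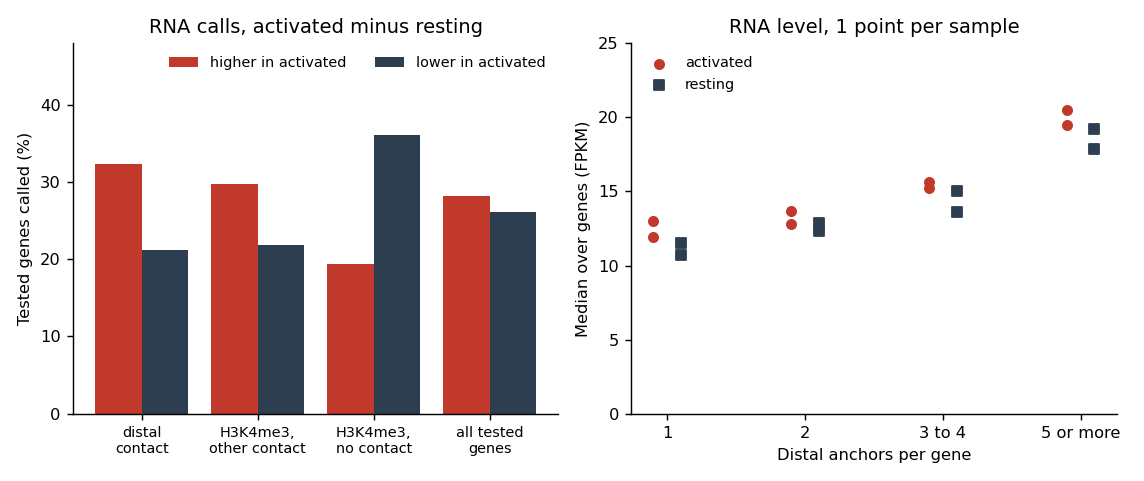
Left, share of tested genes called higher or lower in activated than in resting cells (%), by contact class. Right, median FPKM over contacted genes in each of the 4 samples, by the number of distal anchors per gene. Contacted genes were higher in 32.4% and lower in 21.2%.

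Activation changed contacted genes in both directions. Of the 4777, 4414 passed the filter of at least 1 FPKM in at least 2 samples and were tested with limma (Benjamini-Hochberg adjusted p under 0.05 over all 10863 tested genes). Among them 1431 (32.4%) were higher in activated cells, against 28.2% of all tested genes, and 936 (21.2%) were lower, against 26.2% of all tested genes. In either direction, 54.4% of all tested genes were called, and 2047 of the contacted genes tested were not called. Of tested genes with H3K4me3 and no distal contact, 26.4% were higher and 26.5% lower, 53% in all. The closest comparison was with genes whose contacts were all of another kind, at 29.8% higher and 21.9% lower. Genes with H3K4me3 and no contact stood at 19.4% and 36.2%. The H3K4me3 list itself came from activated cells. The activated and resting samples did not overlap in 80.2% of the contacted genes tested, against 80.6% of all tested genes. The median log2 difference was 0.14, against 0.03 over all tested genes. Without resting replicate 1 the calls were 824 higher and 483 lower, and without resting replicate 2 they were 1033 higher and 464 lower.

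By the number of anchors per gene, 30.6 to 34.3% of tested genes were higher and 19.9 to 23.3% lower. Genes with 1 distal anchor were higher in 32.7% and lower in 19.9%, and genes with 5 or more in 31.6% and 23.3%. Genes with an acetylated distal anchor were higher in 33.2% and lower in 22.1%, and those without one in 31.4% and 20.2%.

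The resting samples held RNA of other cells, which touches these comparisons. Erythroid markers (4 genes measured) summed to 11.7 and 4.35 FPKM in activated samples, against 433 and 2832 FPKM in resting samples. Macrophage and myeloid markers (12 genes) summed to 2.96 and 9.52 FPKM, against 504 and 880 FPKM in resting samples. T cell markers (7 genes) summed to 42.4 and 27.7 FPKM, against 153 and 149 FPKM, and NK markers (5 genes) to 1.01 and 0.392 FPKM, against 6.67 and 22.2 FPKM. Cd2 alone reached 39.8 FPKM in an activated and 130 FPKM in a resting sample, so 1 gene carried most of the T cell sum there. The T cell sum therefore mainly followed Cd2, and whether Cd2 came from T cells was not tested. In the activated samples C1qa, C1qb, S100a9, Cd3d, Cd3e, Cd3g, Gzma, Klrb1c, Klrd1 and Ncr1 were listed at 0 in both replicates, and in the resting samples no marker was. None of these genes was contacted by a distal anchor. Of 6 dendritic cell markers, which summed to 27.4 and 16.5 FPKM against 28.3 and 27.3 FPKM, Flt3 alone was contacted. Flt3 had 25.9 and 15.9 FPKM in activated samples, against 5.25 and 4.36 FPKM in resting samples. It carried most of the activated sum. Of the 5 tested, Flt3 was higher and 4 were lower in activated cells, where 28.2% and 26.2% of all tested genes were. Of 7 B cell markers 4 were contacted, and the list summed to 4398 and 3447 FPKM in activated samples, against 7759 and 8562 FPKM in resting samples. The part of other cells in the RNA differences was not tested, and fewer cells of a type and less RNA per cell cannot be told apart in bulk RNA.

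Prdm1 had the most distal anchors of all genes, 12 in 7 regions. It encodes Blimp-1, the repressor that drives plasma cell differentiation. Its RNA was 61.3 and 75.8 FPKM in activated samples, against 1.23 and 1.26 FPKM in resting samples. The groups lay far apart, with a log2 difference of 4.94 ± 0.163 (SE, limma adjusted p = 1.58e-05). Of the anchors 11 had H3K27ac and all 12 a STARR peak in FAIRE, as did the promoter anchors. They lay 136 to 542 kb from the promoter (locus chr10:44156981-44178493 in mm9), and 11 of the 12 were at higher coordinates, the side from which the minus-strand gene starts. The anchors chr10:44322933-44327932, chr10:44353968-44358967 and chr10:44403761-44408760 carried 40, 53 and 53 reads, and Prdm1 was the nearest gene to each. The farthest region was found at 3 anchor widths. Its 5000 bp anchor, chr10:44716591-44721590, had 53 reads and a z-score of 10.5 at 542 kb, with 4 genes nearer than Prdm1.

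**Figure D5:**
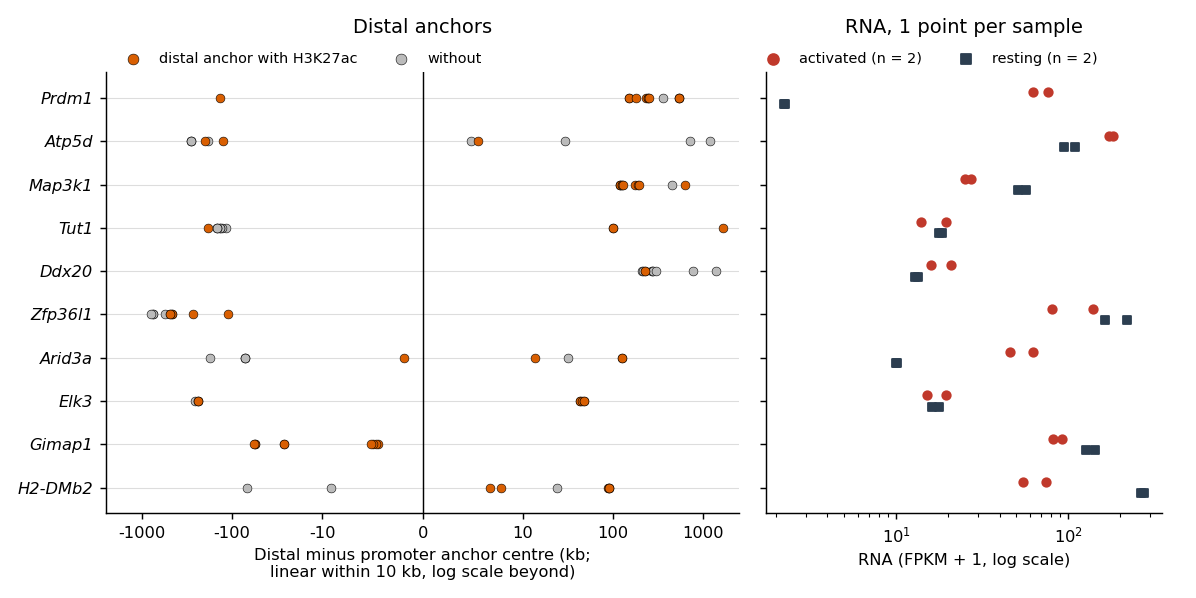
The 10 genes with the most distal anchors. Left, position of each distal anchor relative to its promoter anchor (kb), coloured by H3K27ac. Right, RNA in each activated and resting sample (FPKM + 1, log scale). Prdm1 has 12 anchors, 11 with H3K27ac.

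Of the 10 genes with the most anchors, 3 were called higher in activated cells, 3 lower and 4 in neither direction, close to the 28.2% higher and 26.2% lower of all tested genes. Map3k1, a kinase of the JNK pathway, had 11 anchors, 10 of them with H3K27ac, at 119 to 629 kb. Its RNA was 24.3 and 26.4 FPKM in activated samples, against 50.4 and 55.8 FPKM in resting samples, and fell by 1.04 ± 0.166 on the log2 scale (adjusted p = 0.00248). Arid3a, a DNA-binding protein of the immunoglobulin heavy chain locus, had 9 anchors, and its RNA was 45.2 and 61.7 FPKM in activated samples, against 9.08 and 8.97 FPKM in resting samples. The difference was 2.43 ± 0.189 (adjusted p = 0.000164). H2-DMb2, a chain of the class II peptide editor, had 9 anchors, and its RNA was 73.0 and 53.8 FPKM in activated samples, against 273 and 263 FPKM in resting samples. The difference was -2.08 ± 0.228 (adjusted p = 0.000557), and reads may be shared with its close copy H2-DMb1.

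For 6 of the 10 genes the RNA difference was not called or the call depended on a library. Atp5d, a subunit of mitochondrial ATP synthase, had 11 anchors, 3 with H3K27ac. Its RNA was 172 and 182 FPKM in activated samples, against 93.1 and 109 FPKM in resting samples. It was called higher (adjusted p = 0.0159), but not without resting replicate 1 (0.149) or 2 (0.0661). Gimap1, a GTPase of lymphocyte survival within a cluster of related genes, had 9 anchors within 57.9 kb, all with H3K27ac. Its RNA was 91.0 and 80.4 FPKM in activated samples, against 126 and 143 FPKM in resting samples (adjusted p = 0.0319), and the call was lost without activated replicate 2, resting replicate 1 or resting replicate 2, at adjusted p of 0.0862 to 0.206. Tut1, a terminal uridylyltransferase, and Elk3, an ETS factor, overlapped between the groups. Ddx20, an RNA helicase of the SMN complex, and Zfp36l1, which promotes mRNA decay, did not overlap but had adjusted p of 0.0591 and 0.0584. Ties at 9 anchors were taken in alphabetical order.

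Igj and Slc7a5 were, with Prdm1, among the 10 contacted genes with the largest rises. Igj, the joining chain of secreted IgM and IgA, had 1173 and 1255 FPKM in activated samples, against 35.8 and 76.6 FPKM in resting samples, and its acetylated anchor lay 11.3 kb away. Slc7a5, an amino acid transporter, had 104 and 139 FPKM in activated samples, against 6.66 and 7.42 FPKM in resting samples. Of its 5 anchors 4 fell on 1 acetylated region, and its 5000 bp anchor, chr8:124371036-124376035, had 117 reads at 58.4 kb. Chac1, Vegfa, Top2a, Ube2c, Cks1b and Psat1 were also among the 10, with log2 differences of 3.83 to 4.84.

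The largest fall among contacted genes was in Faim3. Faim3, an Fc receptor for IgM, had 19.8 and 9.93 FPKM in activated samples, against 483 and 436 FPKM in resting samples (log2 difference -4.93 ± 0.314, adjusted p = 8.55e-05). All 3 of its distal anchors, at 122 to 390 kb, had H3K27ac in activated cells. S1pr1, the receptor that guides lymphocytes out of tissue, had 9.99 and 9.14 FPKM in activated samples, against 126 and 130 FPKM in resting samples (log2 difference -3.61 ± 0.161, adjusted p = 4.02e-05). Its 3 anchors had no H3K27ac and all had a STARR peak in FAIRE. H2-Oa, a chain of the inhibitor of the class II peptide editor, had 27.1 and 9.35 FPKM in activated samples, against 166 and 176 FPKM in resting samples, and 8 anchors. The other 7 were Ell3, Cd55, Itgad, Snn, Marcks, Mylip and Ephx1, with log2 differences of -4.30 to -3.04. Itgad had 0.0624 and 0.0130 FPKM in activated samples, against 9.87 and 9.59 FPKM in resting samples. Of the 12 macrophage and myeloid markers above, 10 were also under 1 FPKM in both activated samples. The part of other cells in the fall of Itgad was not tested.

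Of 14 plasma cell regulators 4 were contacted, 3 of them higher in activated cells (28.2% of all tested genes). In the whole list, contacted or not, 11 of 13 tested were higher. Xbp1 had 402 and 466 FPKM in activated samples, against 40.5 and 47.2 FPKM in resting samples (log2 difference 3.28 ± 0.212, adjusted p = 8.83e-05). Beside its contact with adjacent chromatin, it met chr11:5075303-5077302 over 344 kb with 8 reads. Pou2f2, the octamer factor Oct2, had 96.4 and 79.2 FPKM in activated samples, against 69.3 and 53.3 FPKM in resting samples, and was not called (adjusted p = 0.0849). Irf4, Sdc1 and Mzb1 were among the 10 not contacted.

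Cell cycle genes were contacted in 12 of 23 cases, and 11 of these were higher in activated cells, against 28.2% of all tested genes. In the whole list, contacted or not, 22 of 23 were higher. Cdk1, the kinase of mitotic entry, had 27.5 and 47.1 FPKM in activated samples, against 1.63 and 2.88 FPKM in resting samples (log2 difference 3.53 ± 0.293, adjusted p = 0.000203). Its 8 anchors in 7 regions lay at 144 to 2398 kb, and at least 1 other gene was nearer to each. Ccnd2 had 102 and 181 FPKM in activated samples, against 17.8 and 16.5 FPKM in resting samples, and 5 of its 6 anchors had H3K27ac. Ccnd3 was not called. Of the 11 called, 9 were called in every fit that left out 1 library, and Cdc6 and Bub1 were not tested in all of them.

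Unfolded protein response and secretion genes were contacted in 10 of 20 cases, and all 10 were higher in activated cells, as were all 20 of the list, against 28.2% of all tested genes. The call of Ddit3 was lost without activated replicate 1, resting replicate 1 or resting replicate 2 (adjusted p of 0.0731 to 0.165). Only 3 of the 10, Atf6, Sec61b and Edem1, had an acetylated distal anchor. Of 10 class switching genes 5 were contacted and all 5 were higher, as were 9 of the 10 in the list. Among the contacted ones was Exo1, an exonuclease of mismatch repair, with 8 anchors in 5 regions. Exo1 had 5.70 and 8.25 FPKM in activated samples, against 0.685 and 0.462 FPKM in resting samples.

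Genes of B cell identity were contacted in 10 of 20 cases, 8 of them lower and none higher in activated cells, against 26.2% and 28.2% of all tested genes. In the whole list, contacted or not, 17 of 20 were lower. Pax5, the factor that holds B cell identity, had 35.4 and 34.9 FPKM in activated samples, against 95.9 and 93.8 FPKM in resting samples (log2 difference -1.41 ± 0.172, adjusted p = 0.000866). Bcl6, the germinal centre repressor, had 6.41 and 3.43 FPKM in activated samples, against 29.9 and 38.0 FPKM in resting samples (log2 difference -2.60 ± 0.263, adjusted p = 0.000411). Bcl6 had 4 anchors at 162 to 641 kb. Ets1 and Foxo1 were lower too, while the calls of Ebf1, Cd74 and Cd22 were lost without resting replicate 1, and some also without resting replicate 2 or activated replicate 2, at adjusted p of 0.055 to 0.192. With quantile normalization the log2 difference of Cd74 was 0.02.

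Genes of quiescence and homing were contacted in 10 of 15 cases, and all 10 were lower in activated cells, as were all 14 tested in the list, against 26.2% of all tested genes. S1pr1, Klf3 and Txnip were called in every fit that left out 1 library. The calls of Cxcr4, Btg1, Btg2, Ccr7, Gpr183 and Cdkn1b were each lost without at least 1 library, with adjusted p of 0.050 to 0.287, and for 5 of these 6 resting replicate 1 was such a library.

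The remaining lists moved less uniformly. Of 17 activation genes 9 were contacted, 5 higher and 3 lower, against 28.2% and 26.2% of all tested genes. Il10, the anti-inflammatory cytokine, averaged 13.4 ± 3.62 FPKM in activated samples, against 0.204 ± 0.146 FPKM in resting samples (SD, n = 2 each), and an acetylated anchor at chr1:132884146-132889145 joined it by 120 reads over 29.7 kb. Lta and Tnf, cytokine genes that share their anchors, were lower. The calls of Cd69 and Cd40 were lost without resting replicate 1 (adjusted p = 0.0927) and resting replicate 2 (0.120) in turn. Of 19 NF-kB and AP-1 genes 9 were contacted. Of these Batf alone was called, and higher, with 104 and 76.6 FPKM in activated samples, against 11.6 and 12.2 FPKM in resting samples. In the whole list, contacted or not, 5 of 18 tested were higher and 3 lower, against 28.2% and 26.2% of all tested genes. Of 10 looping factor genes 5 were contacted. Smc3, a cohesin subunit, and Wapal, which releases cohesin, were higher, and Ldb1, an adaptor of looping complexes, was lower. Without resting replicate 1 the adjusted p was 0.0539 for Smc3, 0.0536 for Wapal and 0.0733 for Ldb1, so that all 3 calls were lost. Those of Smc3 (0.0536) and Ldb1 (0.0673) were also lost without resting replicate 2.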

How the data were processed

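Gene positions and contacts are on mm9, the build in the submitters' processing notes, and are printed 1-based. HOMER, STAR, TopHat2, Bowtie, Bowtie2 and bedtools appear there without versions or roles, and per the labels' design text HOMER called the FAIRE and STARR peaks. The deposited RNA table holds normalized values whose unit neither header nor labels name. They were treated as FPKM of the authors, and the sequencing depth behind them is unknown. The samples summed to 285068 and 285129 in activated and 244602 and 287884 in resting cells. The deposited Hi-C list gives 2 anchors per contact, an interaction read count over the pooled libraries, a z-score above 3 and the log of a p-value, which was kept as a score as deposited by the authors. It had 32142 entries, of which 4239 repeats were removed. The peak lists hold positions only, without scores, and in the labels the H3K4me3, H3K27ac and FAIRE lists stand with 1 replicate only. Resting ChIP-seq, plasmid library, nascent RNA and H3K4me1 samples were not analysed here.

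Overlap meant at least 1 bp. Both ends of a gene locus counted, because the RNA table gives no strand. RNA was tested with limma 3.58.1 (R 4.3.3, trend and robust options) on log2(FPKM + 1) for genes of at least 1 FPKM in at least 2 samples, with Benjamini-Hochberg adjustment over 10863 genes. A log2 difference is activated minus resting on this scale, on which changes of low genes come out too small. The limma script was tested on simulated data. Intervals of shares are exact Clopper-Pearson. The genes named were the 10 with most distal anchors, the 10 largest rises and falls among called genes whose groups did not overlap and whose higher group averaged 5 FPKM or more (without immunoglobulin and T cell receptor segments, predicted names and repeated symbols), contacted members of the 15 gene lists, the contacts with the highest count and largest distance and the distal regions with the most genes. A few genes chosen this way are not reported here. Other genes named were chosen after their values were seen. The contacts, lists and tests were chosen with earlier results of these data known. Overlapping genes and close copies may share RNA reads. Promoter sequences are RefSeq's on GRCm38.p6, and no mm9 genome was used, so distal sequences are not shown. Alternatives were another pseudocount, no filter, a replicate block, quantile normalization, leaving out each RNA library, other overlaps and other definitions of contacted and nearest gene.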

Additional observations from a re-analysis of the deposited data

How the results depend on the processing

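Calls among all tested genes ranged from 1735 to 2859 higher and 1191 to 2834 lower when 1 RNA library was left out, against 3066 and 2844 with all. Among contacted genes they ranged from 824 to 1421 higher and 464 to 932 lower, against 1431 and 936, and were fewest without a resting library. The lone sample of a group is then assumed to vary like the other group. With the replicate number as a replicate block, contacted genes called were 1551 higher and 994 lower, and all genes 3317 and 2964. Deviations of same-numbered samples correlated at 0.124 over 2 pairs, so the numbers are not shown to pair the samples. The block gained 11 and lost 1 of 191 named genes' calls. With acetylated distal anchors only, fewer genes were left, and 810 were higher and 538 lower.

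The share of distal anchors with H3K27ac was 39.9% with an overlap of at least 100 bp, 59.2% with anchors widened by 1 kb and 43.3% away from H3K4me3 by over 1 kb. For FAIRE these were 70.0, 90.6 and 84.8%, with 76.5% from 20 kb upward and 72.5% after joining overlapping contacts. For STARR peaks in FAIRE they were 63.7, 79.0 and 81.6%, with 71.3 and 67.5%. The nearest gene was contacted in 15.5% when only genes with at least 1 FPKM counted, 9.89% with the gene end inside the promoter anchor, 11.0% away from H3K4me3, 14.9% with start ends by RefSeq strand and 11.8% after joining. The median distance was 136 kb under 1 Mb, 275 kb away from H3K4me3 and 242 kb with H3K27ac. The median activated level was 15.3 FPKM with H3K27ac and 14.7 FPKM with start ends, and 13.3 to 14.0 FPKM in single samples. RefSeq strands, joined contacts and contacts with a STARR peak at the distal anchor were chosen after seeing the data. Quantile normalization gave 3003 higher and 3117 lower calls among all genes and turned the median log2 difference to -0.02, and no filter gave 2865 and 3027 with a median of -0.01, against 0.03. Among contacted genes the calls were 1368 and 1118, and 1232 and 774. Of the 191 named genes, no filter lost 17 calls, and quantile normalization lost 3, gained 12 and reversed 1. The counts and shares under the remaining alternatives moved by less than 1.5 times or stayed within the counting interval or the replicate spread. The median of 7 reads per contact and the single peak lists limit the precision of any 1 contact, and changes in contact between resting and activated cells could not be measured.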
